A study of Mus musculus with 13 samples.

Results

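The genes described here are 9 genes of glucocorticoid signalling, chosen by symbol from the 37636 genes of an FPKM table of mouse brain. They are 2 receptor genes (Nr3c1, Nr3c2), 1 gene for an enzyme that supplies the hormone (Hsd11b1) and 6 genes that glucocorticoids induce (Fkbp5, Tsc22d3, Sgk1, Zbtb16, Ddit4, Errfi1). Each symbol matched 1 row, and all 9 reached the mean of 1 FPKM over all libraries that was set for testing, as did 13905 genes in all.

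Corticosterone, the main glucocorticoid of the mouse, is released from the adrenal gland in a daily rhythm and under stress, and enters the brain. There it binds the mineralocorticoid receptor, which holds the hormone already at resting levels, and the glucocorticoid receptor, which needs the higher levels of stress or of the daily peak. The bound glucocorticoid receptor leaves its chaperones, moves to the nucleus and raises or lowers the transcription of its target genes. Several of these targets feed back on the receptor or on growth and kinase signalling.

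RNA of brain tissue, with no region named, was taken from mice that were male, of the strain Balb/c and aged 6 to 8 weeks. The 6-OHG group (4 libraries) was kept at 8000 m for 24 h and received 6-OHG, a compound that the labels give by this code only, without dose or route. The Mod group (5 libraries) had the same altitude and time without 6-OHG, and the Con group (4 libraries) was kept under normal conditions without 6-OHG. Mod against Con asks about altitude, 6-OHG against Mod about the compound in exposed mice, and 6-OHG against Con about both together. These comparisons share libraries, so their changes are not independent of each other.

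Nothing in the labels ties a library to its own animal. The p-values thus reflect how far the samples at hand differ, and that spread may not include differences between animals. Read totals are not given, so the depth and the counting error behind each value are unknown. Across genes, the libraries correlated at r = 0.957 to 0.989 within groups, with genes not being independent replicates. Markers of neurons were present in every library (8 of 8 genes, summed FPKM 725 to 884.5 in 6-OHG, 742.9 to 818.4 in Mod and 747.5 to 893.7 in Con). 6-OHG replicate 2, Mod replicate 5 and Con replicate 4 had the lowest summed striatum markers of their groups (53.9 FPKM in 6-OHG replicate 2, 86.1 in Mod replicate 5 and 214 in Con replicate 4). Con replicate 4 still lay above Mod replicate 1 (127.9 FPKM) and 6-OHG replicate 3 (143.3 FPKM). Hypothalamus markers, which include Avp and Pomc, summed to 2.52 to 40.4 FPKM in 6-OHG, 67.0 to 124.5 in Mod and 4.62 to 75.5 in Con. Every 6-OHG library thus lay below every Mod library. Of the 5 tested, 3 rose in Mod against Con and 3 fell in 6-OHG against Mod. Markers of 3 other kinds summed lower in every exposed library than in every Con library. Markers of oligodendrocyte precursors summed to 34.1 to 58.9 FPKM in 6-OHG, 46.7 to 72.6 in Mod and 83.5 to 99.7 in Con (3 of 6 fell in Mod and 5 in 6-OHG against Con). Those of microglia summed to 50.4 to 76.2 FPKM in 6-OHG, 63.4 to 74.95 in Mod and 79.2 to 89.5 in Con (2 and 5 of 8 fell against Con). Liver genes other than Ttr summed to 0.405 to 0.617 FPKM in 6-OHG, 0.219 to 28.6 in Mod and 30.8 to 45.1 in Con, and 4 of 4 tested fell in both comparisons with Con. Among them Alb stood at 14.3 to 18.9 FPKM in Con, at 14.4 in Mod replicate 3 and at 0.195 or less in the other exposed libraries. The part of these markers in the changes against Con, and in those of 6-OHG against Mod, was not tested. A difference in the tissue taken and an effect of 6-OHG cannot be told apart by these levels. In bulk tissue, fewer cells of a type and less RNA per cell cannot be told apart.

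FPKM values are scaled to the length of each gene and to the mapped fragments of each library, so levels of different genes can be set side by side on that scale. By mean FPKM over the 13 libraries, Sgk1 (23.9) and Ddit4 (21.1) were the most abundant of the 9, followed by Tsc22d3 (13.5), Nr3c1 (11.5), Errfi1 (9.16), Nr3c2 (7.15), Zbtb16 (7.00) and Fkbp5 (6.15). Hsd11b1 was the least abundant, at 2.01 FPKM. All changes are given as the mean log2(FPKM + 1) of one group minus that of the other, a scale that compresses the fold of weakly expressed genes. A gene rose or fell where its adjusted p in limma, over all genes tested, was under 0.05.

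Between Mod and Con, Fkbp5 and Zbtb16 rose, Nr3c1 fell, and the other 6 genes did not pass the test. Over all genes tested, 23.8% were called in this comparison, 14.0% higher and 9.81% lower, and in 22.4% the groups did not overlap, as was the case for 2 of the 9 genes. Between 6-OHG and Mod, Nr3c1 rose and the other 8 genes did not pass, against a background of 15.3% of all genes called (6.98% higher and 8.35% lower), and the groups overlapped for all 9 genes, against 15.9% of genes without overlap. Between 6-OHG and Con, Fkbp5 and Zbtb16 rose and the other 7 genes did not pass, with 30.7% of all genes called, 16.3% higher and 14.4% lower. In that comparison the groups did not overlap for 2 of the 9 genes and for 28.1% of all genes. The median change of the 9 genes was 0.21 in Mod against Con (0.01 over all genes tested), 0.11 in 6-OHG against Mod (-0.02 over all) and 0.12 in 6-OHG against Con (0.00 over all).

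**Figure D1:**
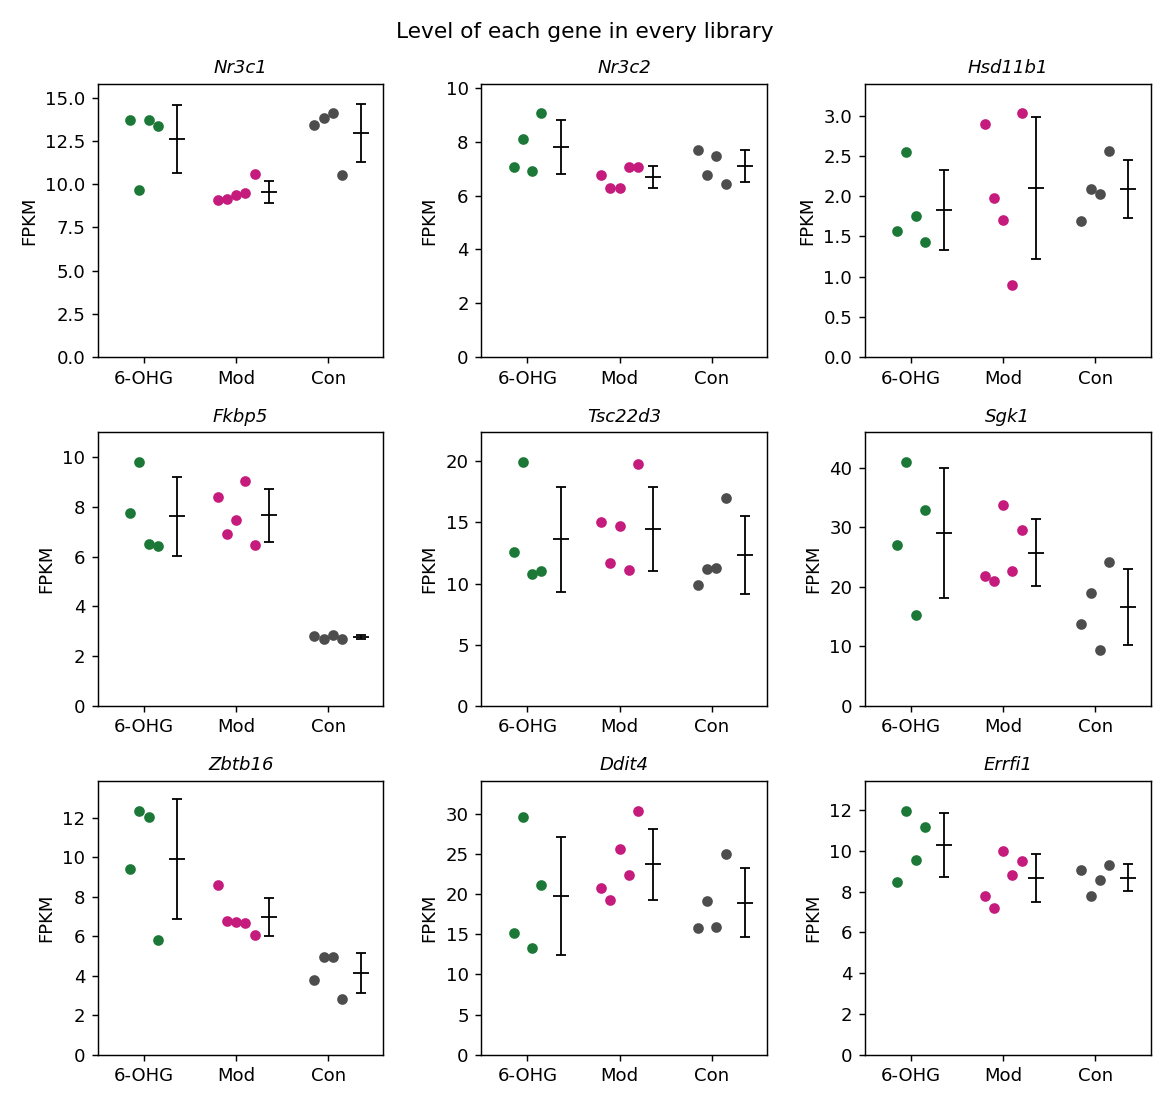
Level of each of the 9 genes in FPKM (vertical axes, from 0) in the 4 6-OHG, 5 Mod and 4 Con libraries; points are libraries, and the bar beside them is the group mean with its SD. Fkbp5 of all 6-OHG and Mod libraries lies above all Con libraries, and Nr3c1 is lowest in Mod except for 1 low library each in 6-OHG and Con.

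**Figure D2:**
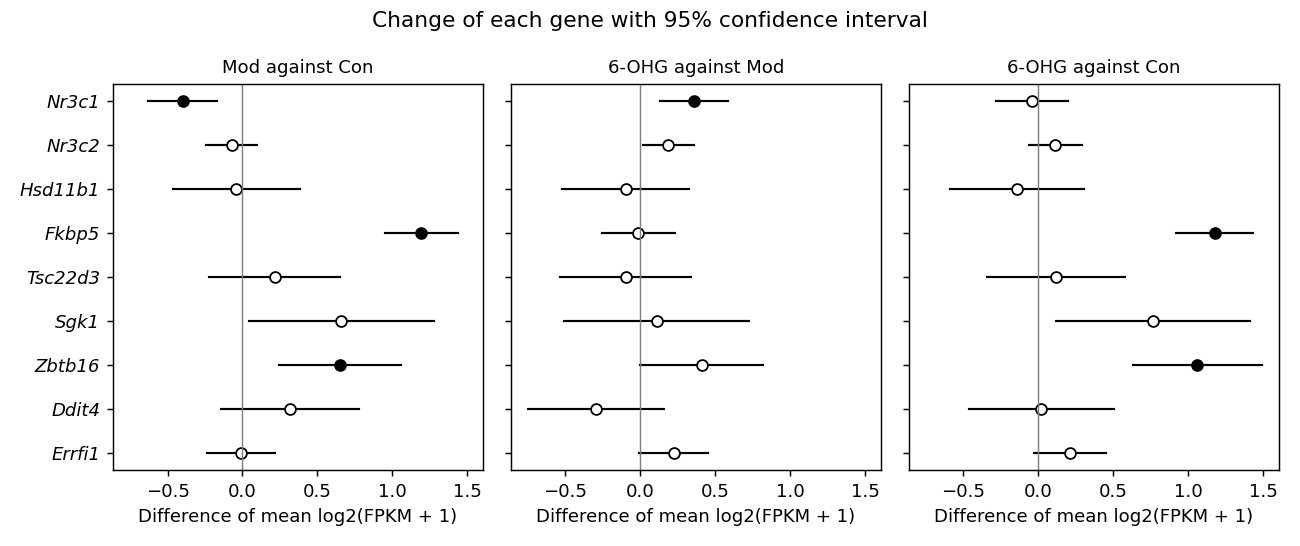
Difference of mean log2(FPKM + 1) for each gene (horizontal axes) in the 3 comparisons, with its 95% confidence interval from limma; filled points passed the adjusted p of 0.05. The filled points are Nr3c1, Fkbp5 and Zbtb16 in Mod against Con, Nr3c1 in 6-OHG against Mod, and Fkbp5 and Zbtb16 in 6-OHG against Con.

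Nr3c1 encodes the glucocorticoid receptor itself (ENSMUSG00000024431, protein coding, GRCm38 chromosome 18 from 39410545 to 39519421, minus strand). Its levels were 13.7, 9.65, 13.7 and 13.3 FPKM in the 6-OHG libraries, 9.10, 9.14, 9.36, 9.49 and 10.6 FPKM in the Mod libraries, and 13.4, 13.8, 14.1 and 10.51 FPKM in the Con libraries. Of the 6-OHG and Con libraries, 3 each lay above all Mod libraries, but 6-OHG replicate 2 and Con replicate 4 lay within the Mod range, so the groups overlapped in both comparisons with Mod. The means were 12.6 ± 1.98 FPKM in 6-OHG, 9.54 ± 0.615 in Mod and 13.0 ± 1.66 in Con (SD, n = 4, 5 and 4). The receptor gene fell by 0.40 in Mod against Con (SE 0.11, adjusted p = 0.0157 in limma) and rose by 0.36 in 6-OHG against Mod (SE 0.11, adjusted p = 0.0376). Between 6-OHG and Con it differed by -0.04, with a 95% interval from -0.28 to 0.20 (adjusted p = 0.805). In order of level, 6-OHG and Con stood above Mod and were not told apart.

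The fall against Con was at the 513th largest size among 1364 genes called lower. It passed in 27 of 28 other settings of the processing and of left-out libraries, and was lost without Con replicate 3 (-0.36, adjusted p = 0.0535). The rise with 6-OHG was lost in 11 of the 28 settings. With the dependence on exon length and GC content fitted in each library and taken out, the change was 0.22 (adjusted p = 0.209). That step also took the calls over all genes in 6-OHG against Mod from 2131 to 989 of 13905. The exons of Nr3c1 join to 7684 bases, against a median of 4102.5 over all genes tested. The rise was also lost in 7 of 13 fits that left out 1 library, those without Mod replicates 1 to 4 or without 6-OHG replicates 1, 3 or 4, while the change stayed at 0.32 to 0.36 in these fits. Without 6-OHG replicate 2, Mod replicate 5 and Con replicate 4 together, each the lowest of its group in striatum markers, the change against Con was -0.53 in Mod, and that of 6-OHG against Mod was 0.51. For Nr3c1 these libraries are also the lowest of 6-OHG, the highest of Mod and the lowest of Con, so leaving them out had to widen both differences, and these values support neither call.

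The genes whose pattern over the 13 libraries was nearest to that of Nr3c1 were Lrrtm2, a synaptic adhesion protein gene, Kdm7a, a histone demethylase gene, Setd7, a lysine methyltransferase gene, Prr14l and Mfap3l. Their root mean square differences from Nr3c1, each gene centred on its own mean of log2(FPKM + 1), were 0.08 for Lrrtm2 and Kdm7a, 0.10 for Setd7 and 0.11 for Prr14l and Mfap3l. The spread of Nr3c1 about its own mean was 0.24 on this scale.

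Nr3c2, the mineralocorticoid receptor gene (ENSMUSG00000031618, chromosome 8 from 76899442 to 77245012, plus strand), varied less. It stood at 7.07, 8.09, 6.92 and 9.07 FPKM in 6-OHG, at 6.76, 6.29, 6.28, 7.06 and 7.08 FPKM in Mod and at 7.70, 6.78, 7.46 and 6.43 FPKM in Con. The 3 groups overlapped throughout. The change was -0.07 in Mod against Con (95% interval -0.24 to 0.10, adjusted p = 0.550 in limma) and 0.19 in 6-OHG against Mod (0.02 to 0.36, adjusted p = 0.123). Its exons share 155 bases with the long noncoding Gm10649 on the other strand (mean 0.320 FPKM), and without a stated strand setting those reads cannot be told apart.

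Because both receptors bind the same hormone, their levels were also set against each other within each library, a measure added after the values were seen. Nr3c1 stood at 1.64 ± 0.38 times Nr3c2 in 6-OHG, 1.43 ± 0.0757 times in Mod and 1.83 ± 0.175 times in Con (FPKM ratio, SD, n = 4, 5 and 4). The ratios of Mod ended at 1.497 and those of Con began at 1.63, so these groups did not overlap. The mean log2 ratio in Mod minus that in Con was -0.35 (exact two-sided permutation test, p = 0.00794, adjusted p = 0.0238 over 6 tests). That p is the smallest that the 126 arrangements of 5 and 4 libraries can give, and with libraries left out the adjusted p was 0.0238 to 0.0857. It was over the threshold in 11 of 15 settings, all those that left out a Mod or Con library. Leaving out such a library allows fewer arrangements and raises the smallest p that can be reached. The loss in these settings thus says nothing about the difference, which stayed at -0.42 to -0.30. In 6-OHG the ratio ran from 1.19 to 1.98, across both other groups (0.18 against Mod, exact permutation p = 0.302, adjusted p = 0.452; -0.18 against Con, exact permutation p = 0.400, adjusted p = 0.480).

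Hsd11b1 encodes the enzyme that turns the inactive keto forms of glucocorticoids back into active hormone inside cells (ENSMUSG00000016194, chromosome 1 from 193221634 to 193264075, minus strand). It was low and variable, at 1.44 to 2.54 FPKM in 6-OHG, 0.894 to 3.04 FPKM in Mod and 1.69 to 2.57 FPKM in Con. None of the comparisons passed the test. The interval in Mod against Con ran from -0.47 to 0.38 around -0.04, and that in 6-OHG against Mod from -0.52 to 0.33 around -0.10. Its SD was 42.2% of the mean in Mod, and changes within these intervals are not excluded by these libraries.

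Of the wider set of 8 genes for the supply and clearance of the hormone, 5 were tested. In Mod against Con 0 rose and 1 fell, beside 14.0% and 9.81% of all genes. In 6-OHG against Mod 1 rose and 0 fell, beside 6.98% and 8.35%. In 6-OHG against Con 0 rose and 1 fell, beside 16.3% and 14.4%. Abcb1a, a drug pump gene of brain vessels whose product also exports some corticosteroids, fell in Mod against Con and rose in 6-OHG against Mod. It stood at 4.85 ± 0.665 FPKM in 6-OHG, 3.30 ± 0.512 in Mod and 4.94 ± 0.412 in Con (log2 changes -0.47 in Mod against Con, adjusted p = 0.00407, and 0.44 in 6-OHG against Mod, adjusted p = 0.00960, both limma). With length and GC trends taken out, 0 of the 5 genes passed in 6-OHG against Mod. That step took the calls over all genes there from 2131 to 989 of 13905. Abcb1a is an endothelial gene, and of 8 endothelial markers 5 rose and 3 fell in Mod against Con. The summed endothelial level was 54.2 to 69.9 FPKM in 6-OHG, 64.2 to 71.6 in Mod and 64.7 to 77.5 in Con, and its part in the change of Abcb1a was not tested. Srd5a1, which reduces steroids, fell in 6-OHG against Con (-0.38, adjusted p = 0.0303 in limma). H6pd, which supplies the cofactor of Hsd11b1, as well as Cyp7b1 and Star passed in no comparison. Hsd11b2, Abcb1b and Serpina6 were under 1 FPKM and not tested.

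The start sites of 7 of the 9 genes have 15 windows in the RefSeq promoter table of GRCm38.p6, which holds 32851 windows of 27025 genes. Zbtb16 and Nr3c1 are not among them. The windows were searched on both strands for the full palindrome that the glucocorticoid and mineralocorticoid receptors share, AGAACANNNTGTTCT, for the arm of it, AGAACA, and for the cores of the oxygen response element, ACGTG and GCGTG. The full palindrome was found in 3 windows of the table (0.00913%), and 1 of these is of Sgk1. Its letters, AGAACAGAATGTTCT, lie at chr10:21993701-21993715 on the plus strand, 189 bases before that start, over 5 annotated transcripts of Sgk1 and 0 exons, thus in an intron of the longer transcripts. AGAACA was found in 4 of the 15 windows, those of Sgk1 and Tsc22d3, against 19.0% of all windows. ACGTG was found in 4 of the 15, those of Ddit4, Errfi1, Fkbp5 and Sgk1, against 19.6%, and GCGTG in 8 of the 15, of 6 genes, against 32.4%. Windows of 1 gene can overlap and share a match. A match is a description of the letters only.

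The 250 bases upstream of 3 starts are shown because Sgk1 holds the full palindrome, Fkbp5 rose most of the 9 genes, and Ddit4 is induced by both the hormone and low oxygen. They run 5' to 3' on the strand of the gene. Sgk1 is at chr10:21993640-21993889 (plus strand), Fkbp5 at chr17:28486150-28486399 (minus strand) and Ddit4 at chr10:59951771-59952020 (minus strand). Capitals mark the matches to the motifs above. In Sgk1 the first run of capitals joins ACGTG, read on both strands, with AGAACA on the opposite strand, and the second run is the full palindrome. In Fkbp5 the capitals are ACGTG read on both strands, and in Ddit4 they are ACGTG and GCGTG.
Sgk1: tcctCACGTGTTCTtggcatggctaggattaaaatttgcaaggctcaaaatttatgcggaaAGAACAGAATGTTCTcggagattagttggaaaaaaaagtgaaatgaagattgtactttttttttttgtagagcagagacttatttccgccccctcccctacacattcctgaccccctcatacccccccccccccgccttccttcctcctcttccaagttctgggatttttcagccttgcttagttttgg
Fkbp5: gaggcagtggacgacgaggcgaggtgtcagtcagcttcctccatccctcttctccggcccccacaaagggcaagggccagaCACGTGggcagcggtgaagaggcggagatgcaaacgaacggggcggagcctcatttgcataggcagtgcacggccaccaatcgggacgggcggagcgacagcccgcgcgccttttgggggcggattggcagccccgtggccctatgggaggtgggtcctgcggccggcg
Ddit4: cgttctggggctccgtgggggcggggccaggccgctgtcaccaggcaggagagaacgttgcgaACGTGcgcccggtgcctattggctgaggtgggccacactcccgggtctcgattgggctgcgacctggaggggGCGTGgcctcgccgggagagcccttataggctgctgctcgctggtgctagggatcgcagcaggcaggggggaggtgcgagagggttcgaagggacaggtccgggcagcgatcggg

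Fkbp5 encodes a co-chaperone that lowers the affinity of the glucocorticoid receptor for its hormone and is itself induced by the receptor (ENSMUSG00000024222, chromosome 17 from 28399094 to 28517527, minus strand). It stood at 7.77, 9.82, 6.51 and 6.42 FPKM in 6-OHG, at 8.40, 6.90, 7.49, 9.06 and 6.47 FPKM in Mod and at 2.82, 2.69, 2.86 and 2.69 FPKM in Con. Every exposed library, with or without 6-OHG, lay above every Con library, and the 6-OHG and Mod ranges overlapped. The means were 7.63 ± 1.58 FPKM in 6-OHG, 7.66 ± 1.07 in Mod and 2.77 ± 0.0855 in Con. The ratio of means was 2.77 for Mod over Con and 2.76 for 6-OHG over Con.

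On the log2 scale, Fkbp5 rose by 1.19 in Mod against Con (SE 0.11, adjusted p = 1.99e-05 in limma) and by 1.18 in 6-OHG against Con (SE 0.12, adjusted p = 4.15e-05). These were the 52nd and the 43rd largest rises of 1940 and 2270 called genes, and both calls held in 28 of 28 other settings. Between 6-OHG and Mod the difference was -0.01, with a 95% interval from -0.26 to 0.23 (adjusted p = 0.950), which bounds any difference but does not show the levels to be equal. Its spread within groups was 20.8% of the mean in 6-OHG, 13.9% in Mod and 3.09% in Con.

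Fkbp4, the related immunophilin that competes with the product of Fkbp5 on the receptor complex and carries it to the nucleus, passed in no comparison. It stood at 30.9 ± 5.68 FPKM in 6-OHG, 31.5 ± 2.49 in Mod and 35.7 ± 3.08 in Con. Within libraries, Fkbp5 was 0.246 ± 0.013 times Fkbp4 in 6-OHG, 0.245 ± 0.0452 times in Mod and 0.0780 ± 0.00723 times in Con. The log2 ratio was higher by 1.64 in Mod than in Con (exact permutation p = 0.00794, adjusted p = 0.0238 over the 6 ratio tests) and by 1.66 in 6-OHG than in Con (exact permutation p = 0.0286, the smallest that 70 arrangements can give, adjusted p = 0.0571). This ratio too was added after the values were seen. Fkbp5 alone already separated these groups, so the ratio tests against Con are not separate support for its rise. With libraries left out, the difference between Mod and Con was 1.55 to 1.73 and its adjusted p was 0.0238 to 0.0857, over the threshold in the same 11 of 15 settings; fewer libraries allow fewer arrangements. Between 6-OHG and Mod the log2 ratio differed by 0.025 (exact permutation p = 0.809, adjusted p = 0.809). Nearest to Fkbp5 in pattern over the 13 libraries were Gbe1, which branches glycogen, Rbm3, a cold-inducible RNA-binding protein gene, Bnip3, Stc1 and 4930570G19Rik. Their root mean square differences were 0.17 to 0.19, against 0.57 for the spread of Fkbp5 itself. Bnip3 is also among the genes that low oxygen induces, described below.

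Zbtb16, which encodes the zinc finger repressor PLZF (ENSMUSG00000066687, chromosome 9 from 48654297 to 48836222, minus strand), had its highest mean in 6-OHG and its lowest in Con. It stood at 9.38, 12.4, 12.0 and 5.83 FPKM in 6-OHG, at 8.61, 6.78, 6.73, 6.68 and 6.08 FPKM in Mod and at 3.77, 4.96, 4.97 and 2.84 FPKM in Con. All exposed libraries lay above all Con libraries, while 6-OHG replicate 4 lay below every Mod library and the other 3 6-OHG libraries above every Mod library. Means were 9.90 ± 3.02 FPKM in 6-OHG, 6.98 ± 0.958 in Mod and 4.13 ± 1.03 in Con. Zbtb16 rose by 0.65 in Mod against Con (SE 0.19, adjusted p = 0.0248 in limma) and by 1.06 in 6-OHG against Con (SE 0.20, adjusted p = 0.00187). Between 6-OHG and Mod the difference of 0.41 did not pass (95% interval 0.00 to 0.82, adjusted p = 0.162), though it did without 6-OHG replicate 4 (0.62, adjusted p = 0.0261).

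The rise against Con held in 28 of 28 settings for 6-OHG. For Mod it was lost in 5 of 28, without the filter on low genes (adjusted p = 0.0667), with FPKM rescaled to equal sums (0.0519), and without Con replicate 1 (0.0627), Con replicate 4 (0.0645) or Mod replicate 1 (0.0577). The genes nearest to Zbtb16 in pattern were Gm44836, Ier2, an immediate early gene, Cpeb1, a regulator of messenger RNA translation, Klhl40 and Gm26679. Their root mean square differences were 0.17 to 0.25, against 0.50 for the spread of Zbtb16.

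Sgk1 encodes a kinase that raises ion channels and transporters at the cell surface and is a target of both receptors (ENSMUSG00000019970, chromosome 10 from 21882184 to 21999903, plus strand). It stood at 27.1, 41.0, 15.2 and 32.9 FPKM in 6-OHG, at 21.8, 21.0, 33.7, 22.7 and 29.5 FPKM in Mod and at 13.7, 18.9, 9.42 and 24.2 FPKM in Con. The highest Con library, replicate 4, lay above 3 of the 5 Mod libraries, and the lowest 6-OHG library, replicate 3, lay within the Con range. Sgk1 was 1.56 times Con in Mod and 1.75 times Con in 6-OHG by group means, but did not pass the test. The changes were 0.66 in Mod against Con (95% interval 0.05 to 1.27, adjusted p = 0.112 in limma), 0.77 in 6-OHG against Con (0.12 to 1.42, adjusted p = 0.0684) and 0.11 in 6-OHG against Mod (-0.51 to 0.72, adjusted p = 0.839). The call varied with the libraries and their weights: without Con replicate 4 the adjusted p was 0.0446 for Mod and 0.0292 for 6-OHG against Con, and without 6-OHG replicate 3 it was 0.0146 for 6-OHG against Con. With sample weights and all libraries kept it was 0.0196 for Mod and 0.0295 for 6-OHG against Con, and without 6-OHG replicate 2, Mod replicate 5 and Con replicate 4 together it was 0.0534 and 0.0698. The SD of Sgk1 was 37.4% of the mean in 6-OHG, 21.6% in Mod and 38.7% in Con.

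Tsc22d3 encodes GILZ, a leucine zipper protein that restrains inflammatory transcription factors (ENSMUSG00000031431, chromosome X from 140539528 to 140600659, minus strand). It stood at 12.6, 19.97, 10.8 and 11.0 FPKM in 6-OHG, at 15.0, 11.7, 14.7, 11.1 and 19.8 FPKM in Mod and at 9.85, 11.2, 11.3 and 17.0 FPKM in Con. In each group the library with the lowest striatum markers was the highest, and the groups overlapped. Of the libraries with the next-lowest striatum markers, 6-OHG replicate 3 was the lowest of its group at 10.8 FPKM. Mod replicate 1 stood at 15.0 FPKM and Con replicate 3 at 11.3 FPKM. None of the comparisons passed, with changes of 0.21 in Mod against Con (95% interval -0.22 to 0.65, adjusted p = 0.480 in limma), -0.10 in 6-OHG against Mod (-0.53 to 0.34, adjusted p = 0.793) and 0.12 in 6-OHG against Con (-0.34 to 0.58, adjusted p = 0.7096).

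Ddit4 encodes REDD1, which restrains the growth kinase complex mTORC1 and is induced by low oxygen as well as by glucocorticoids (ENSMUSG00000020108, chromosome 10 from 59949669 to 59951834, minus strand). It stood at 15.1, 29.7, 13.3 and 21.2 FPKM in 6-OHG, at 20.8, 19.3, 25.7, 22.4 and 30.4 FPKM in Mod and at 15.7, 19.1, 15.9 and 25.0 FPKM in Con. Again the highest library of each group was the one with the lowest striatum markers. The libraries with the next-lowest striatum markers lay below their group means. These were 6-OHG replicate 3 (13.3 FPKM), Mod replicate 1 (20.8) and Con replicate 3 (15.9). No comparison passed (0.32 in Mod against Con, 95% interval -0.14 to 0.77, adjusted p = 0.306 in limma, and -0.30 in 6-OHG against Mod, -0.75 to 0.16, adjusted p = 0.376). Without both 6-OHG replicate 2 and Con replicate 4, Ddit4 was lower in 6-OHG than in Mod (-0.50, adjusted p = 0.0446), and with Mod replicate 5 left out as well it did not pass (-0.41, adjusted p = 0.0751). Whether the tissue taken decided these levels was not tested.

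Errfi1 encodes MIG6, an inhibitor of the EGF receptor (ENSMUSG00000028967, chromosome 4 from 150853919 to 150868892, plus strand). It ran from 8.46 to 12.0 FPKM in 6-OHG, from 7.21 to 10.0 FPKM in Mod and from 7.79 to 9.30 FPKM in Con, with overlap throughout. Mod and Con differed by -0.01 (95% interval -0.24 to 0.22, adjusted p = 0.968 in limma). In 6-OHG it was higher than in Mod by 0.22, which did not pass (-0.01 to 0.45, adjusted p = 0.173).

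**Figure D3:**
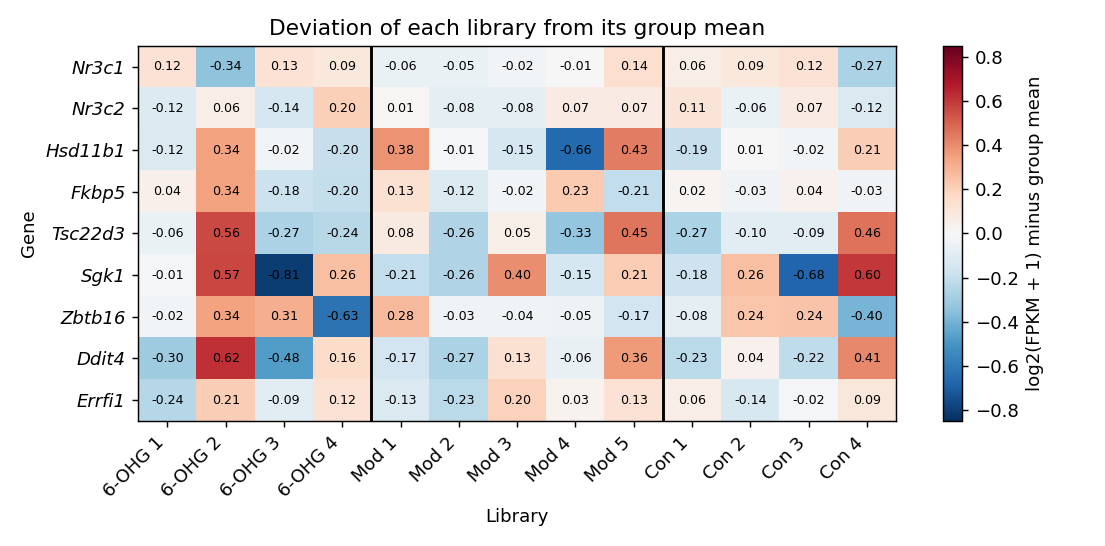
Deviation of each library from its own group mean in log2(FPKM + 1) (colour and printed value), with genes down the page and libraries across, 6-OHG at the left, then Mod and Con. Tsc22d3 and Ddit4 are high in 6-OHG 2, Mod 5 and Con 4 (0.36 to 0.62), while Nr3c1 is low in 6-OHG 2 (-0.34) and Con 4 (-0.27).

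In 6-OHG replicate 2, Mod replicate 5 and Con replicate 4, 4 of the 6 induced genes lay above their group means throughout, and Zbtb16 and Fkbp5 did not. Tsc22d3 lay above its group mean by 0.56 in 6-OHG replicate 2, 0.45 in Mod replicate 5 and 0.46 in Con replicate 4. Ddit4 lay above it by 0.62, 0.36 and 0.41 in the same libraries, Sgk1 by 0.57, 0.21 and 0.60, and Errfi1 by 0.21, 0.13 and 0.09. Zbtb16 deviated by 0.34 in 6-OHG replicate 2 but by -0.17 in Mod replicate 5 and -0.40 in Con replicate 4. Fkbp5 deviated by 0.34, -0.21 and -0.03 there. The next-lowest striatum markers were those of 6-OHG replicate 3, Mod replicate 1 and Con replicate 3. Sgk1 deviated there by -0.81, -0.21 and -0.68, Ddit4 by -0.48, -0.165 and -0.22, and Errfi1 by -0.09, -0.13 and -0.02. Tsc22d3 deviated by -0.27, 0.08 and -0.09. Summed striatum markers were 143.3 FPKM in 6-OHG replicate 3, 127.9 in Mod replicate 1 and 280.2 in Con replicate 3, which was low within its own group only. The map of deviations shows 6-OHG replicate 2, Mod replicate 5 and Con replicate 4 against the other 10. The part of the tissue taken was not tested.

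Other glucocorticoid-induced genes that passed the test against Con were all higher, in Mod as in 6-OHG. Of 30 further genes of this kind 27 were tested; Lcn2, Lyve1 and Xdh were under 1 FPKM. In Mod against Con, 15 of the 27 rose and 0 fell, with a median change of 0.47, against 14.0% of all genes called higher and 9.81% lower. In 6-OHG against Con, 19 rose and 0 fell, with a median of 0.66, against 16.3% and 14.4% of all genes. At an unadjusted p under 0.05 in limma, 17 and 21 were higher in these comparisons and 0 lower in both. Of all 13905 genes, at least 4628 and 4802 reached that threshold there, in either direction. This list, like the other gene lists here, was chosen with earlier results of these data known. That choice may have raised its counts over the shares of all genes, and no test was made over the list. The smallest p-values in Mod against Con belonged to Plin4, Hif3a, Sult1a1, Mt1, Angptl4 and Mt2. The sulfotransferase gene Sult1a1 stood at 10.3 ± 2.79 FPKM in 6-OHG, 11.7 ± 1.08 in Mod and 4.01 ± 0.552 in Con (log2 change 1.34 in Mod against Con, adjusted p = 2.43e-05 in limma). Angptl4, an inhibitor of lipoprotein lipase, stood at 2.72 ± 0.912, 2.88 ± 0.456 and 0.571 ± 0.224 FPKM in 6-OHG, Mod and Con (1.31 in Mod against Con, adjusted p = 8.22e-05). The metallothionein gene Mt2, whose product binds zinc and copper, stood at 189.4 ± 76.3 FPKM in 6-OHG, 239.8 ± 42.1 in Mod and 89.0 ± 13.4 in Con (1.41, adjusted p = 0.000489). Some of these genes respond to low oxygen as well, Angptl4 and Hif3a among them.

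The other 12 did not pass in Mod against Con: Dusp1, Nfkbia, Gpd1, Tgm2, Bcl6, Rasd1, Net1, Nedd9, Cebpb, Fam107a, Pdk4 and Klf9. They are named after their values were seen. Of these, Klf9, a transcription factor gene that the receptor induces, was near the threshold, with 42.1 ± 2.2 FPKM in Mod and 32.2 ± 7.32 in Con (0.41, adjusted p = 0.0528 in limma). Nfkbia, the inhibitor of NF-kB, differed by 0.01 (adjusted p = 0.962).

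Between 6-OHG and Mod, 3 of the 27 rose and 0 fell in limma, with a median of 0.01, near the 6.98% of all genes called higher and 8.35% called lower. At an unadjusted p under 0.05, 4 were higher and 1, Mt1, was lower, while at least 4256 of all 13905 genes reached it in either direction. Per1, a clock gene that the receptor induces directly, stood at 21.9, 18.1, 19.1 and 18.7 FPKM in 6-OHG, 15.6, 12.7, 14.6, 15.4 and 12.7 FPKM in Mod and 12.1, 12.2, 11.95 and 8.53 FPKM in Con. The 3 groups did not overlap, with 6-OHG above Mod and Mod above Con. Per1 rose by 0.43 in 6-OHG against Mod (SE 0.10, adjusted p = 0.0153 in limma), by 0.32 in Mod against Con (SE 0.10, adjusted p = 0.0388) and by 0.75 in 6-OHG against Con (SE 0.11, adjusted p = 0.000375). Dusp1, a phosphatase of MAP kinases, stood at 12.0 ± 2.37 FPKM in 6-OHG, 7.89 ± 1.55 in Mod and 7.28 ± 1.28 in Con (0.55 in 6-OHG against Mod, adjusted p = 0.0316). Net1 stood at 7.10 ± 1.42, 4.96 ± 0.367 and 4.47 ± 0.99 FPKM in 6-OHG, Mod and Con (0.43, adjusted p = 0.0354). Without 6-OHG replicate 2, 3 of the 27 rose and 3 fell in 6-OHG against Mod. Over all genes, 2261 of 13905 were called in that fit, against 2131 with all libraries.

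The plot of changes against Con sets the 6 induced genes among these 27. Plin4, a lipid droplet protein gene, had the largest changes, 2.74 in 6-OHG and 2.79 in Mod.

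**Figure D4:**
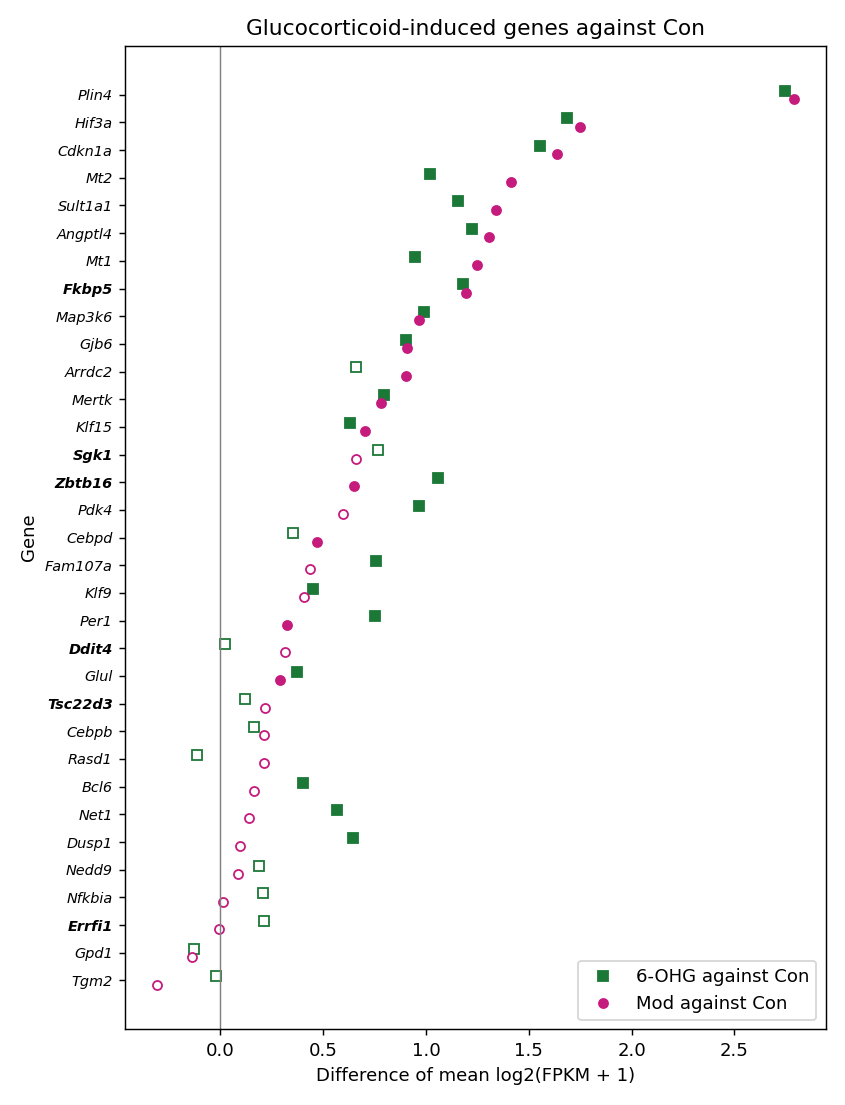
Difference of mean log2(FPKM + 1) against Con (horizontal axis) for the 6 induced genes described above (bold) and 27 further glucocorticoid-induced genes, ordered by Mod against Con; squares are 6-OHG, circles Mod, and filled symbols passed the adjusted p of 0.05. Filled symbols all lie right of 0, from 0.29 to 2.79 in Mod against Con, and the 6 bold genes are spread from 1.19 (Fkbp5) to -0.01 (Errfi1).

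Chaperones hold the receptor ready for hormone. Of 14 such genes, 0 rose and 2 fell in Mod against Con, near the 9.81% of all genes called lower there. In 6-OHG against Mod 0 rose and 4 fell, against 8.35% of all genes called lower, and in 6-OHG against Con 0 rose and 9 fell, against 14.4%. At an unadjusted p under 0.05, 6, 5 and 9 were lower in limma and 0 higher. At least 4628, 4256 and 4802 of all 13905 genes reached that threshold in these comparisons, in either direction. Hspa8, the constitutive HSP70, stood at 152 ± 12.9 FPKM in 6-OHG, 170.4 ± 15.7 in Mod and 227.3 ± 12.4 in Con, and fell by 0.42 in Mod against Con (SE 0.08, adjusted p = 0.00240 in limma) and by 0.58 in 6-OHG against Con. St13, the HSP70-interacting protein gene, fell by 0.27 in Mod against Con (adjusted p = 0.0171). In 6-OHG against Mod the genes that fell were Stub1, a ubiquitin ligase of chaperone clients (-0.37, adjusted p = 0.00820), Bag1, a nucleotide exchange factor (-0.25), Ptges3, the HSP90 partner p23 (-0.27), and Cdc37, an HSP90 partner for kinases (-0.16). After rescaling all columns to 1 sum, 1 of the 14 fell in 6-OHG against Mod. Against Con, 4 fell in Mod and 5 in 6-OHG. Calls over all genes were then 1783, 2698 and 3603 in these comparisons, against 2131, 3304 and 4268 before. The HSP90 genes Hsp90aa1 and Hsp90ab1 passed in no comparison, and Hsp90aa1 stood at 271.7 ± 20.4 FPKM in 6-OHG, 258 ± 16.8 in Mod and 264.3 ± 16.5 in Con.

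Coregulators carry the signal of the bound receptor to the transcription machinery. Of 14 genes, 1 rose and 2 fell in Mod against Con, near the 14.0% of all genes called higher and 9.81% called lower. Crebbp, an acetyltransferase, rose (4.60 ± 0.221 FPKM in Mod, 3.65 ± 0.327 in Con, change 0.27, adjusted p = 0.00416 in limma). Med14, a subunit of the Mediator complex, and Smarca4, the motor of a chromatin remodelling complex, fell (-0.52, adjusted p = 0.000282, and -0.32, adjusted p = 0.000714). In 6-OHG against Mod 7 rose and 0 fell, against 6.98% of all genes called higher and 8.35% lower. Among the 7 were the coactivator genes Ncoa1 (0.49, adjusted p = 0.00157 in limma), Ncoa2 (0.34), Ep300 (0.33) and Ppargc1a (0.48). The corepressor genes Ncor1 (0.42) and Nrip1 (0.42) were also among them. At an unadjusted p under 0.05 in limma, 8 were higher and 0 lower, and at least 4256 of all 13905 genes reached it in either direction. Ncoa1 stood at 15.3 ± 0.781 FPKM in 6-OHG, 10.6 ± 0.828 in Mod and 11.3 ± 0.951 in Con. These genes are long, with a median exon length of 8758 bases. With length and GC trends taken out, 2 of the 14 rose and 1 fell. In 6-OHG against Mod, that step took the calls over all genes from 2131 to 989 of 13905.

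Of 9 genes for the hormones and receptors that drive the adrenal gland, 4 were tested. In Mod against Con 1 rose and 2 fell, beside 14.0% and 9.81% of all genes. In 6-OHG against Con 0 rose and 2 fell, beside 16.3% and 14.4%. Crhr1, the receptor for corticotropin-releasing hormone, fell in Mod against Con (3.49 ± 0.848 FPKM in Mod, 5.93 ± 0.253 in Con, change -0.65, adjusted p = 0.00150 in limma) and in 6-OHG against Con (3.36 ± 0.372 FPKM in 6-OHG, -0.67, adjusted p = 0.00120). Crhbp, which binds that hormone, fell in both (-0.39, adjusted p = 0.0206, and -0.43, adjusted p = 0.0127). Avp, the vasopressin gene, rose in Mod against Con (2.204, SE 0.75, adjusted p = 0.0494), with 0.412 to 8.35 FPKM in 6-OHG, 3.38 to 22.03 in Mod and 0.237 to 11.8 in Con. Avp is itself among the hypothalamus markers, of which 3 of 5 tested rose in Mod against Con, and the call was lost with FPKM rescaled to equal sums, when 0 of the 4 genes rose. Crh did not pass in any comparison, and Pomc, Crhr2, Mc2r, Avpr1a and Avpr1b were under 1 FPKM.

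Of 10 paralogs of the 9 genes, 7 were tested; 2 rose and 0 fell in Mod against Con, 0 rose and 1 fell in 6-OHG against Mod, and 1 rose and 2 fell in 6-OHG against Con. These small counts stand beside the shares of all genes called, 14.0% higher and 9.81% lower in Mod against Con, 6.98% higher and 8.35% lower in 6-OHG against Mod, and 16.3% higher and 14.4% lower in 6-OHG against Con. Sgk3 rose in Mod against Con (0.43, adjusted p = 0.0320 in limma), as did Tsc22d4 (0.40, adjusted p = 0.0189). Fkbp8 fell in 6-OHG against Mod (35.1 ± 0.465 FPKM in 6-OHG, 44.5 ± 1.35 in Mod, change -0.34, adjusted p = 0.00210). Tsc22d1 fell in 6-OHG against Con (-0.19, adjusted p = 0.0142). Sgk2 and Zbtb32 were under 1 FPKM.

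Among 12 genes for targets and partners of the encoded proteins, 10 were tested. Tsc1, whose product is part of the arm through which REDD1 restrains mTORC1, rose in both comparisons with Con. It stood at 9.91 ± 0.433 FPKM in Mod and 7.16 ± 0.419 in Con (change 0.42, adjusted p = 0.000765 in limma). In 6-OHG against Con the change was 0.62 (adjusted p = 7.67e-05 in limma). Tsc2 went the other way without passing, at -0.155 in Mod (adjusted p = 0.0524) and -0.117 in 6-OHG (adjusted p = 0.133, both limma against Con). Every exposed library lay below every Con library for Tsc2. Rps6kb1, a kinase downstream of mTORC1, rose in 6-OHG against Con (0.31, adjusted p = 0.00357), and Ndrg1, whose product SGK1 phosphorylates, fell there (-0.62, adjusted p = 0.0366). In 6-OHG against Mod 0 of the 10 were called by limma. Over all genes, 6.98% were called higher there and 8.35% lower. At an unadjusted p under 0.05 in limma there were 3 of the 10, and at least 4256 of all 13905 genes. Against Con, 1 rose and 0 fell in Mod, and 2 rose and 1 fell in 6-OHG. The shares of all genes were 14.0% higher and 9.81% lower in Mod, and 16.3% and 14.4% in 6-OHG. Erbb2 and Scnn1a were under 1 FPKM.

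Ddit4 can also be read beside genes that low oxygen induces. Of 18 such genes 17 were tested, and 15 rose and 0 fell in Mod against Con (median 0.68), 0 rose and 4 fell in 6-OHG against Mod (median -0.12), and 14 rose and 0 fell in 6-OHG against Con (median 0.55). Of all genes, 14.0% were called higher in Mod against Con, 8.35% lower in 6-OHG against Mod and 16.3% higher in 6-OHG against Con. At an unadjusted p under 0.05 in limma, 15, 0 and 15 were higher and 0, 8 and 0 lower. At least 4628, 4256 and 4802 of all 13905 genes reached that threshold in these comparisons, in either direction. Car9 was under 1 FPKM. Beside these medians, the changes of Ddit4 were 0.32, -0.30 and 0.02, and those of Fkbp5 were 1.19, -0.01 and 1.18.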

How the data were processed

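Messenger RNA of 13 brain libraries was analysed from the FPKM table deposited by the authors (fragments scaled to gene length and library). Alignment and counting tools named per the submitters' processing notes are HISAT2 2.2.1, featureCounts 1.5.0-p3 and StringTie 2.1.6. The notes also name cutadapt 1.9, FastQC, edgeR and DESeq2, and the builds GRCm38 and mm10. Their roles, the annotation release, strand setting and filters are not given in the sources used here. IDs were matched to symbols and positions with GENCODE annotation of GRCm38 (37499 of 37636 matched, 137 not). At the best step, 7.99% to 9.78% of low values lay within 0.01 of a whole multiple, so counts were not recovered and depth is unknown; no counting interval is given.

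Values were taken as log2(FPKM + 1) for 13905 genes whose mean reached 1 FPKM. One linear model with 1 mean per group was fitted to the 13 libraries in limma 3.58.1 (R 4.3.3) with eBayes moderation (trend option), and two-sided p-values took a Benjamini-Hochberg adjustment across the whole tested table (threshold 0.05). The procedure was tested on simulated data. The members and gene lists were chosen with earlier results of these data known, and no test was made over a list. Besides the 9 genes, the text names up to 6 called genes per list and comparison with the smallest p. It also names list genes under the filter and the 5 genes nearest in pattern to each called member. Further list genes that did not pass, such as Tsc2, Crh and Hsp90aa1, are named outside this rule, with their values known. Other pseudocounts, filters, scalings, moderation, weights, fits of the compared groups alone, the replicate block, removal of length and GC trends, a marker component and left-out libraries were tried. The within-library ratios and the fit without 3 libraries were added after the data were seen. Promoter windows came from RefSeq (GRCm38.p6). Plots used matplotlib 3.10.9 (Python 3.11.15).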

Additional observations from a re-analysis of the deposited data

Results flagged for a closer look

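In 3 of 27 sets of values (9 genes in 3 groups) 1 library lay far from the others of its group by Dixon's criterion, which chance meets in about 1 of 20 sets. Nr3c1 was at 9.65 FPKM in 6-OHG replicate 2, with a gap to the next library of 0.910 of the group's range. Nr3c1 was at 10.6 FPKM in Mod replicate 5 (0.742 of the range), where the library lay above the others. Zbtb16 was at 8.61 FPKM in Mod replicate 1 (0.723 of the range), above the other 4 Mod libraries.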

How the results depend on the processing

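The calls of Fkbp5 against Con in both comparisons, and of Zbtb16 in 6-OHG against Con, held in 28 of 28 other settings. The number of the 9 genes called in 6-OHG against Mod (1) was 0 with no filter, with the replicate block, with length and GC trends removed and with both together. It was 2 without both 6-OHG replicate 2 and Con replicate 4, and 0 to 1 with single libraries left out. Over all genes the calls in this comparison, 2131 of 13905, fell as well. They were 1444 of 36406 with no filter, 846 with the block, 989 with the trends removed and 24 with both. Those losses were thus not particular to the 9 genes. Of the other induced genes called in 6-OHG against Mod (3), 1 was left with no filter, 0 with the replicate block and 0 with the block and the trends removed. That count was 5 with sample weights, 5 with a marker component, 7 without both of those libraries, 6 without Mod replicate 5 as well, and 1 to 6 with single libraries left out. Over all genes, calls rose to 2904 with sample weights and 2789 with the marker component. They were 2923 without both libraries, 2359 without Mod replicate 5 as well, and 1357 to 2345 with single libraries left out. Deviations of same-numbered libraries from their group means correlated at -0.483 to 0.346. No reference for unpaired libraries was made, so these values do not decide whether the replicate numbers pair the libraries.

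Changes that did not pass took the other sign in some settings. In Mod against Con these were Hsd11b1 (0.033 with sample weights, 0.029 without both libraries, -0.15 to 0.123 with single libraries left out) and Errfi1 (0.023 without both, -0.057 to 0.049). In 6-OHG against Mod they were Hsd11b1 (0.011 with the replicate block, -0.262 to 0.011), Tsc22d3 (0.016 with the block, -0.285 to 0.016), Fkbp5 (0.075 with equal sums, 0.001 with quantile normalization, -0.18 without 3 libraries, -0.129 to 0.053 with 1 left out) and Sgk1 (-0.08 without both, -0.027 without 3 libraries, -0.08 to 0.378). The log2 ratio of Fkbp5 to Fkbp4 was -0.077 there without 3 libraries and -0.069 to 0.118 with 1 left out. In 6-OHG against Con they were Ddit4 (-0.051 without both and without 3, -0.187 to 0.181), Nr3c1 (-0.133 to 0.071) and Tsc22d3 (-0.07 to 0.271). The causes were not tested. Hsd11b1 has no value under the 5 FPKM filter. Levels near 1 FPKM and the unknown depth limit what could be seen of Hsd11b1.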
